A study of Mus musculus with 96 samples.

Results

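The respiratory chain genes of the nucleus were followed across single erythroid cells of mouse marrow that differed in their level of Hba-a1, an alpha globin gene. The set was taken by name from the deposited table. It holds every symbol beginning Ndufa, Ndufb, Ndufc, Ndufs, Ndufv, Uqcr, Cox4 to Cox8 or Atp5, with Sdha to Sdhd and Cycs, which gave 93 of 24321 symbols. By role these were 36 subunits of complex I, 4 of complex II, 8 of complex III, 18 of complex IV, 15 of complex V, cytochrome c, 7 assembly factors of complex I and 4 symbols that code no subunit. The study holds 96 cells from marrow of C57BL/6 mice with genotype Rpl11 +/lox, heterozygous for a lox allele of a ribosomal protein gene, all labelled as erythroid precursors. The labels give no second genotype, no animal, age or treatment, and they name no Cre driver. The cells therefore count as 1 sample. Every difference below is a description of these cells, with no test, and says nothing of the genotype.

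The respiratory chain passes electrons from NADH (complex I) and succinate (complex II) through complex III and cytochrome c to oxygen at complex IV, and complex V uses the resulting proton gradient to make ATP. Most subunits are coded in the nucleus and imported, and a few core subunits of complexes I, III, IV and V are coded by mitochondrial DNA, whose genes are not analysed here. Erythroid precursors need mitochondria for heme synthesis while they fill with globin, and they clear their mitochondria as they become red cells.

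Of the 96 cells, 69 listed at least 1000 symbols at 1 RPKM or more, RPKM being reads scaled to transcript length in kilobases and to 1000000 mapped reads. Of these, 13 with markers of another lineage and 1 with few erythroid markers were set aside, and 55 were compared. They were split by their deposited Hba-a1 level into a low band of 7 cells (under 100000 RPKM), a middle band of 20 cells (100000 to under 400000 RPKM) and a high band of 28 cells (400000 RPKM or more). No pair of compared cells had identical values, and 14 cells lay within 10% of a band limit. The median number of symbols listed was 4490, 2744 and 1412.5 in the low, middle and high band, and estimated depth had medians of about 5020000, 6650000 and 7890000 reads. Globin took so much of the signal that the non-globin part was 89.1% of summed RPKM in the median low cell, 27.4% in the middle and 10.1% in the high band. Levels are therefore given as globin-free values, a gene's RPKM per 1000000 of the summed RPKM of all non-globin symbols in that cell. Rpl11 was listed in 7 of 7 low, 19 of 20 middle and 12 of 28 high cells, with medians of 496.591, 206.458 and 0.264 RPKM. This does not check the label, since all cells share it.

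2 cells stood apart. Cell 11, in the low band, went against its label. It listed Mpo, a granule enzyme of neutrophil precursors, at 7333 RPKM, Plac8 at 4134 and Lyz2 at 800.5 RPKM, Gata1, the master regulator of the erythroid line, at 0, and Hba-a1 at 209.858 RPKM. The other 6 low cells listed Gata1 between 108.994 and 262.168 RPKM and Mpo at no more than 0.0865 RPKM. Several results for the low band are given with and without cell 11, and those that name no exclusion include it. With it, summed neutrophil markers in the low band ran from 0 to 13880 RPKM with 6 of 10 at 0 in all cells, against at most 131.603 RPKM in a middle and 12.9 RPKM in a high cell. B cell markers (8 of 8) were at 0 in all 55 cells. Cell 94, in the middle band, listed only 1184 symbols.

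2 promoters are printed because their genes sat near opposite ends of the range described below, Sdhd with the largest difference between bands and Cox6a1 with one of the smallest, although both windows hold the same pair of motifs. NRF1 and the ETS factor GABP are known regulators of nuclear respiratory genes. Each window runs from 250 bases before to 50 after the annotated start, from RefSeq on build GRCm38.p6, and is read 5′ to 3′ on the strand of the gene. Capitals mark matches to the NRF1 core (GCGCA, any base, GCGC) and the ETS core CCGGAAG on either strand (the ETS core reads CTTCCGG on the other).
Sdhd, chr9:50603800-50604099, minus strand: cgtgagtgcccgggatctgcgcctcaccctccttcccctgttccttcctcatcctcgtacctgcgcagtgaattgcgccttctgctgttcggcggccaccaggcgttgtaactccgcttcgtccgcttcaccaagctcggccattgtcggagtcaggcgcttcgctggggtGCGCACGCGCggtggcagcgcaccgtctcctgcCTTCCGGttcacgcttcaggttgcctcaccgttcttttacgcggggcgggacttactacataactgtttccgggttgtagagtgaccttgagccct
Cox6a1, chr5:115348909-115349208, minus strand: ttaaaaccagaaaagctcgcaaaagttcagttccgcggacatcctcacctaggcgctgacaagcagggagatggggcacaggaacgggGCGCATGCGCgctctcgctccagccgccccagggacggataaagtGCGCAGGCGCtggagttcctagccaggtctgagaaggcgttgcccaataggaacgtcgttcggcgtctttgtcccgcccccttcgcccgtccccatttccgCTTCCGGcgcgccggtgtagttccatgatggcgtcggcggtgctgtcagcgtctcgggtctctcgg
The Sdhd window held 1 NRF1 and 1 ETS match, and the Cox6a1 window 2 NRF1 matches and 1 ETS match. Of the members, 77 matched the table, with 83 windows. The NRF1 core was found in 24.1% of these windows and in 4.60% of all 32851 windows of this length. The ETS core was found in 20.5% against 8.86%, and the YY1 core AAGATGG, that of another known regulator, in 15.7% against 6.34%. Some matches of different cores lie in the same window, and a match is not a site in use. Between the high and low band, 18 tested members with an NRF1 match had a median difference of -4.22 and 54 without one had -3.69 (log2 scale, defined below). For the ETS core the order was the opposite, -3.19 with a match and -4.33 without, and for YY1 the medians were -4.33 and -3.70.

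The summed chain signal took a smaller share of the non-globin signal in cells with more Hba-a1. In the low cells, in order of Hba-a1, the 93 genes made up 7.3, 6.37, 7.56, 6.25, 6.02, 6.82 and 7.44 percent. The middle cells ran from 1.64% (cell 94) through a median of 4.80% to 7.41%, and the high cells from 1.08% through 2.75% to 6.16%. The low and high bands barely overlapped: 1 of 28 high cells and 4 of 20 middle cells lay above the lowest low cell. The middle and high bands overlapped widely, with 6 high cells below the lowest middle cell (cell 94) and 15 below the next lowest, and 25 of 28 high cells lay below the middle median. Standard deviations over cells were 0.62, 1.44 and 1.40 percentage points. The mean share in the high band was 42.6% of that in the low band (43.1% without cell 11), and that in the middle band 72.2% (73.0% without cell 11). Without cell 94 the middle median was 4.87% and the lowest middle cell 2.86%.

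**Figure D1:**
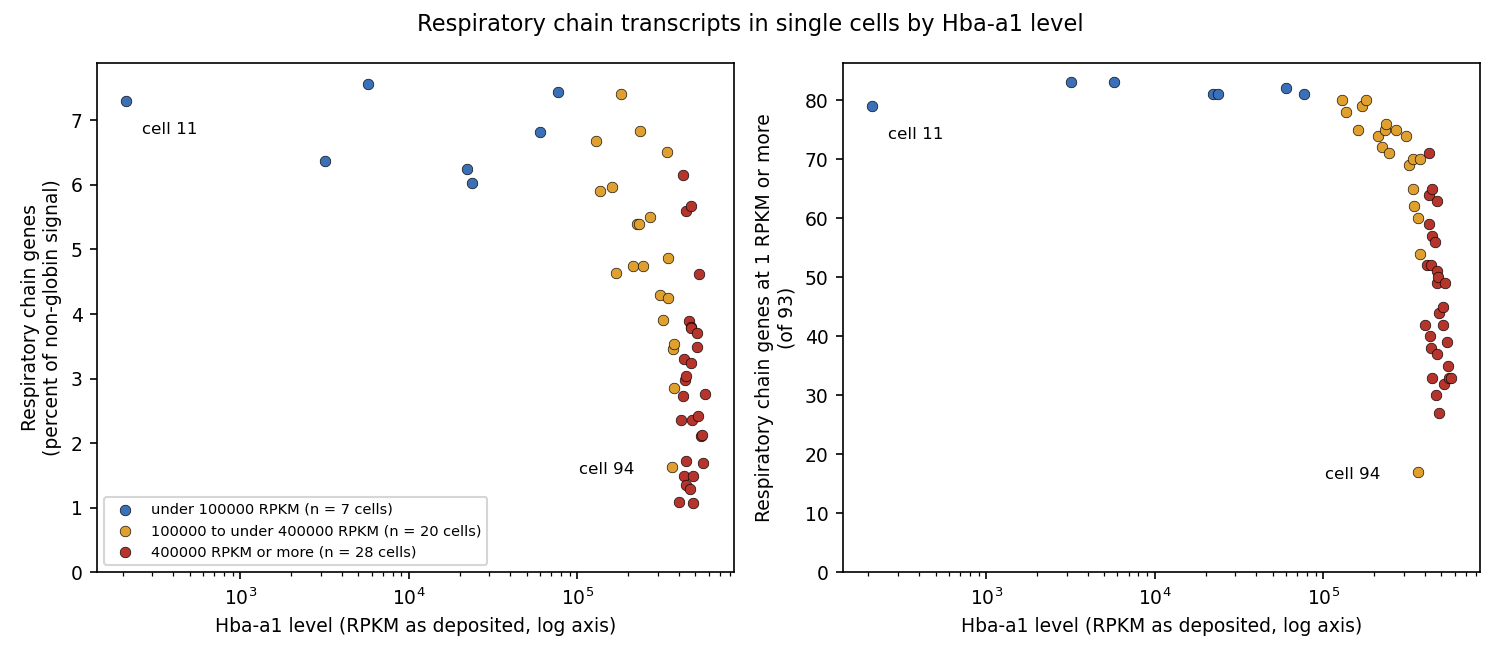
Each point is a cell, placed by its Hba-a1 level in RPKM on a log axis and coloured by band; the left panel gives the 93 chain genes as percent of non-globin signal and the right panel how many of them were at 1 RPKM or more. The low cells sit between 6.02% and 7.56% and at 79 to 83 genes, and both measures spread downward through the middle and high bands, with cells 11 and 94 labelled.

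The sample descriptions carry 3 run codes, while the titles give 1 code for all cells, and what a code stands for is not stated. The order of the bands was the same under each of the 3 codes. Median shares in the low, middle and high band were 6.82%, 3.92% and 2.25% for SCP-1706013, 6.19%, 4.74% and 2.71% for SCP-170608, and 7.43%, 5.45% and 2.87% for SCP-1706080. These medians rest on 3, 2 and 2 low cells. Each of the 5 complexes had a lower median share in the high than in the low band. Complex I went from 2.07% in low through 1.61% in middle to 0.772% in high cells, complex III from 0.935% through 0.552% to 0.320%, complex IV from 1.70% through 1.27% to 0.741% and complex V from 1.72% through 1.28% to 0.693%. Complex II was the smallest and went from 0.181% through 0.0905% to 0.00853%. Cycs, which codes the cytochrome c that carries electrons between complexes III and IV, went from 0.0358% through 0.0224% to 0.0117%. Of its mean low level complex II kept 12.1% in the high band (11.8% without cell 11), complex I 42.9%, complex III 40.0%, complex IV 50.6%, complex V 39.7% and cytochrome c 32.9%.

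Read within the chain, complex II stood apart from the other complexes. As percent of the summed chain subunit signal, which does not depend on the globin scaling, complex II had medians of 2.79% in the low, 1.69% in the middle and 0.520% in the high band. The low cells ran from 2.16% (2.61% without cell 11) to 3.54%, and the high cells from 0 to 3.26%, so the ranges overlapped. Complex I had 31.8%, 32.6% and 29.8%, complex III 13.5%, 11.4% and 12.1%, and complex V 26.7%, 26.4% and 26.0%. Complex IV had 24.6%, 26.8% and 29.1%. Its high median lay above every low cell (highest 28.2%), and that of complex I below every low cell (lowest 29.95%, or 30.5% without cell 11). In percentage points complex IV moved most, and relative to its low median complex II moved most. All these moves were of a few points at most, while the spread between high cells was wide.

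**Figure D2:**
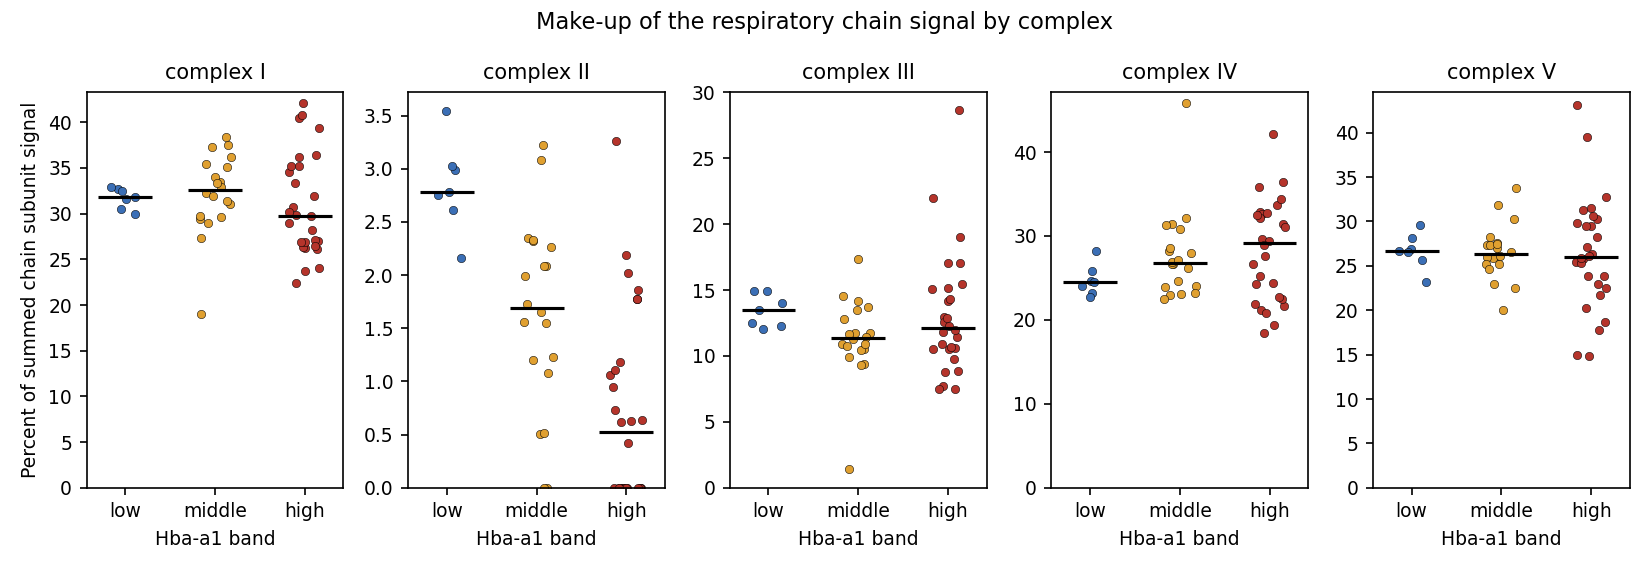
Each panel is 1 complex, with the percent of summed chain subunit signal on the vertical axis, a point per cell and a line at the median of each Hba-a1 band. Complex II goes from a median of 2.79% to 0.520%. Its high median and that of complex I (29.8%) lie below every low cell, and that of complex IV (29.1%) above every low cell. High cells are widely spread.

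Fewer chain genes were listed in cells with more Hba-a1, a listing being 1 RPKM or more as deposited. That cutoff stands for more globin-free units in the high cells than in the low cells. Low cells listed a median of 81 of the 93 genes (79 to 83, or 81 to 83 without cell 11), middle cells 73 (17 to 80, or 54 to 80 without cell 94) and high cells 44.5 (27 to 71). As percent of all symbols listed in a cell, however, the chain went from a median of 1.80% through 2.60% to 3.27%. Of the 75 members listed in all 7 low cells, 9 (12%) were listed in at least 90% of high cells and another 9 (12%) in under 20%. Among all 1354 symbols listed in all low cells these percentages were 9.60% and 24.2%. The median share of high cells listing such a gene was 64.3% for the members and 42.9% for all such symbols. Atp5b, the catalytic beta subunit of ATP synthase, was the only one of the 75 listed in all 28 high cells. Since globin took most reads in the high band, 1 read was worth more there on the globin-free scale: for Sdhd 0.276 units in the median low cell and 0.435 in the median high cell. Over members the value of 1 read in the high band ran from 0.114 to 1.70, by the length of the longest matched transcript. How many RNA molecules a cell held, or how many were captured, was not measured.

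In the high cells that did list a member, its level was mostly below that in the low band. Members were picked here by listing in every low cell but only 1 high cell, so this adds no separate support. For Sdhd, Sdha and Ndufa10 the high median rests on 2 cells. For 74 members listed in all low cells and at least 1 high cell, the median over the listing high cells was at the median member 59.5% of the low band median, from 15.5% to 144%. It reached 100% for 5 members and was under 50% for 29. For 1310 symbols chosen the same way the median was 78.4%. On plain means over all cells the median tested member kept 37.5% of its low level, against 46.2% for 4200 tested symbols.

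Gene by gene, values were compared as the difference between bands of the mean log2(globin-free value + 1), and a difference of 1 or more was counted. From the low to the high band 81 of the 93 members were lower by 1 or more, 0 were higher and 12 differed by less. Over all 4223 tested symbols 74.0% were lower and 7.32% higher, so a lower value was the common case. The median member differed by -3.58 over all 93 and by -3.80 over the 83 that passed the filter (1 RPKM in at least 10 compared cells), against -2.57 for all tested symbols. The filter leaves out any symbol listed in low cells alone. Here and below, counts over all 93 members and shares over tested symbols are therefore not on the same footing. This scale weighs cells at 0 heavily: on linear means the median tested member differed by -1.40 and 61 of the 93 were lower. The share of all symbols lower by 1 on linear means is not given. On plain means 69.9% of the 83 tested members kept under 50% of their low level, against 52.4% of 4200 tested symbols. Without cell 11, 82 members were lower with a median of -3.97 over the 83, against 75.5% lower, 6.70% higher and -2.76 for all symbols.

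Over all cells more members were lower from the middle to the high band than from the low to the middle band. From low to middle 51 members were lower and 1 higher, against 52.9% and 9.87% of all symbols. Over the 83 tested members the median was -1.24, and over all tested symbols -1.08. Without cell 11 the counts were 53 and 0, against 57.3% and 7.91% of all symbols, and the medians were both -1.25. From middle to high 70 members were lower and 0 higher, against 59.0% and 1.94% of all symbols, and these shares were 59.6% and 1.96% in the filter without cell 11. The members' median was -2.29 and that of all symbols -1.28. Within run code SCP-1706013, with 14 cells including cell 94, this order was turned round: 73 of the 93 members were lower from low to middle and 49 from middle to high. Without cell 94, 36 of the 83 tested members were lower in the middle than in the low band, against 50 with it, and the median was -0.86. For this run code, and without cell 94, the share over all symbols is not given, so these counts do not single out the members. From low to middle 2 of 18 complex IV and 5 of 15 complex V genes were lower, and 27 of 36 complex I, 4 of 4 complex II and 6 of 8 complex III genes. Only 12 of the 18 complex IV genes passed the filter, and the other 6 were at 0 in all compared cells. These counts include cell 94, and counts by complex without it are not given.

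**Figure D3:**
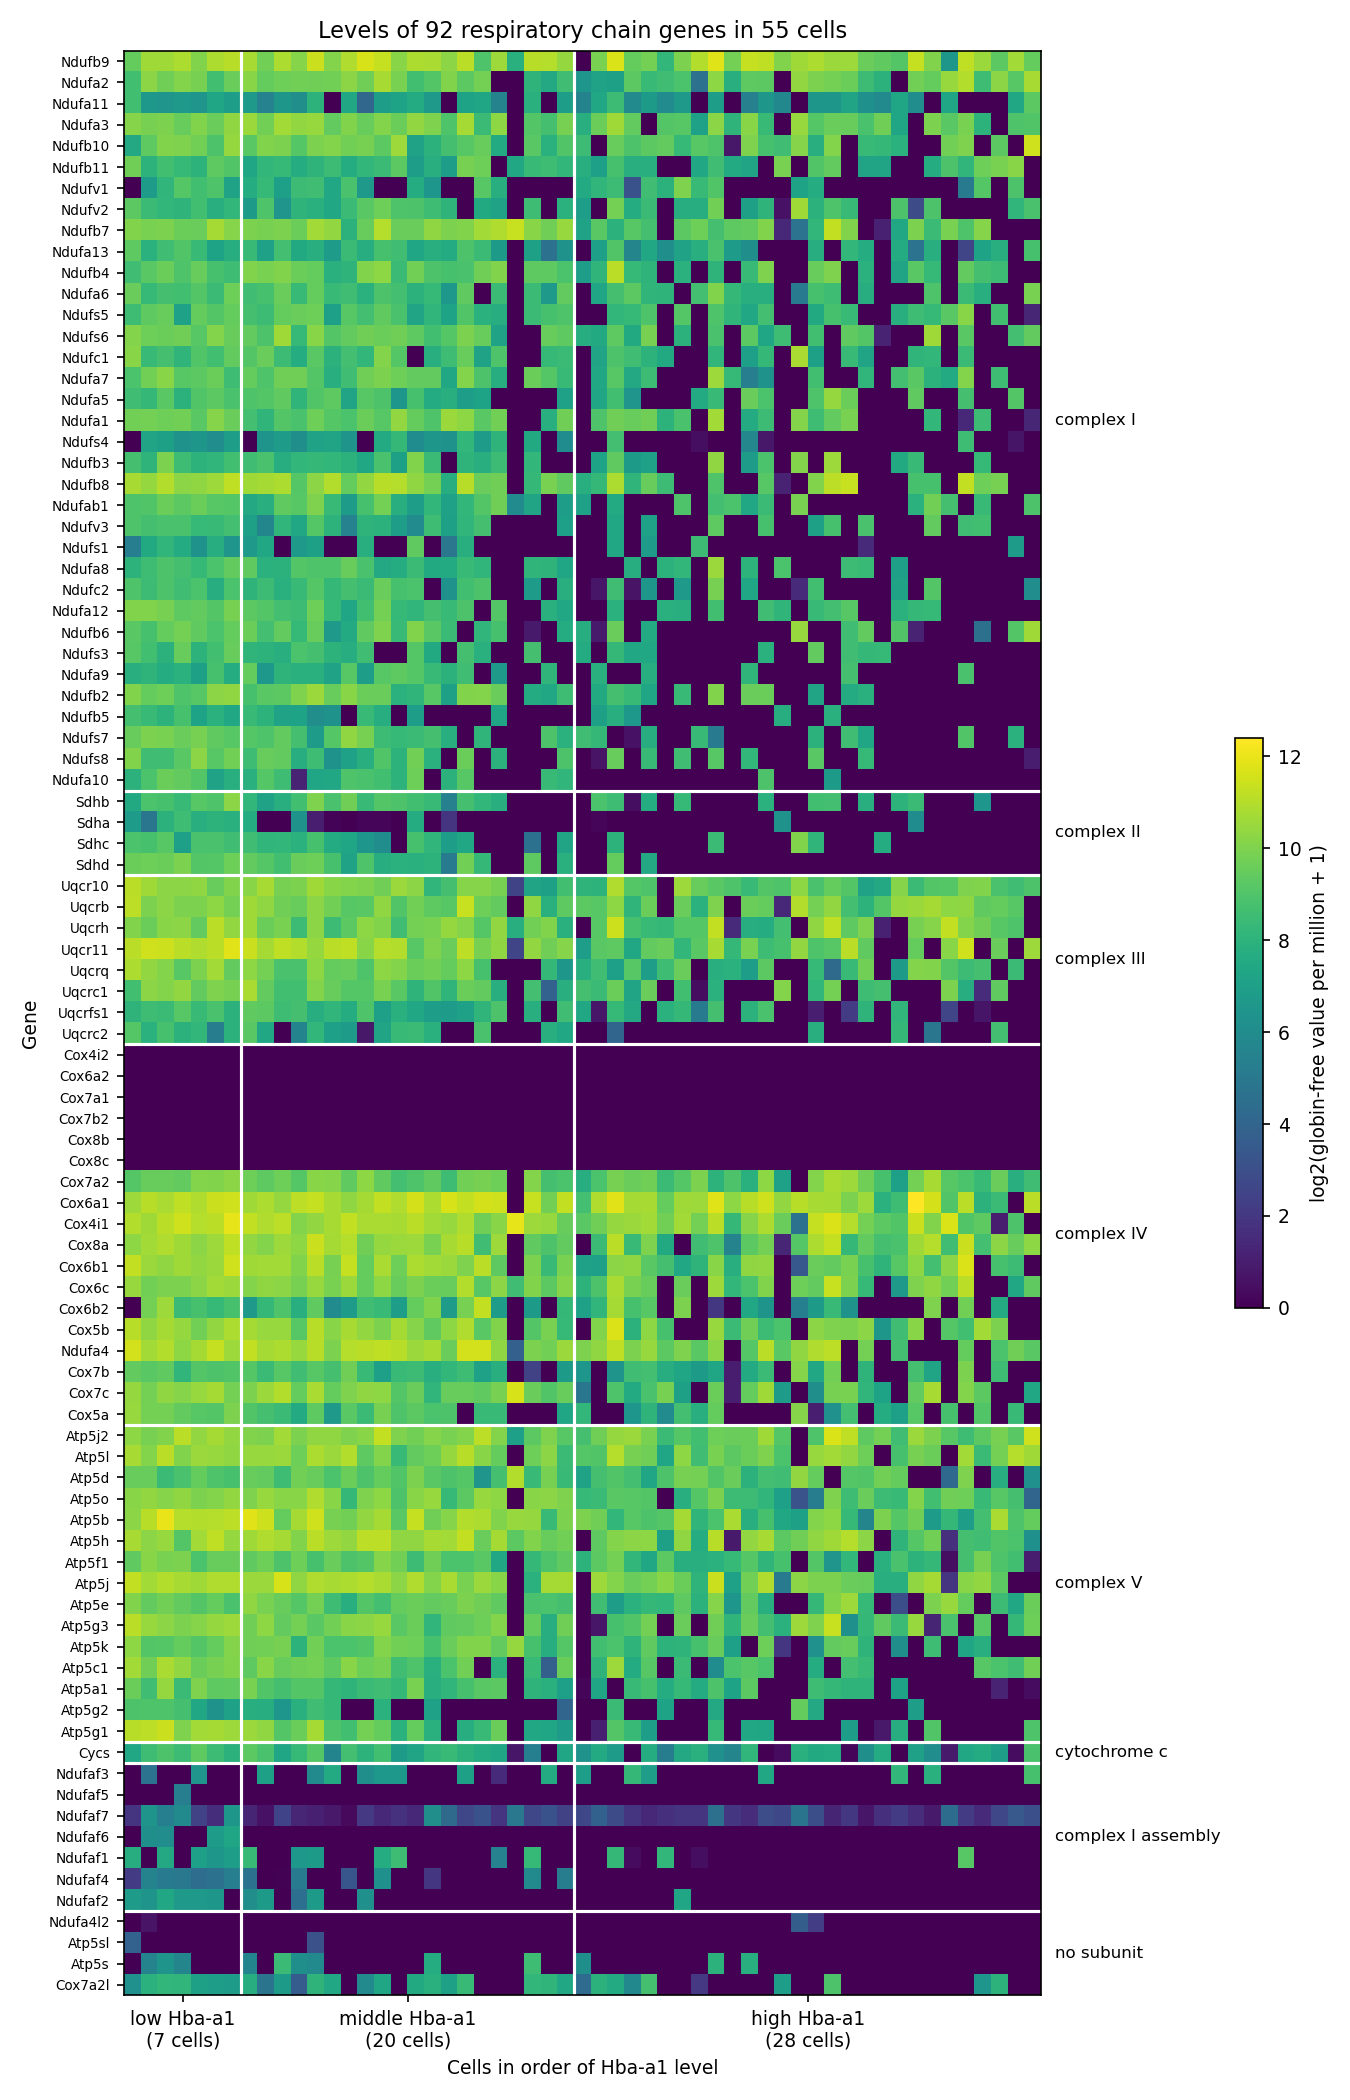
Rows are 92 of the 93 genes grouped by complex and ordered within each by their high minus low difference, columns are the 55 cells in order of Hba-a1 level with white lines between bands, and colour is log2(globin-free value + 1). Dark boxes, cells that list a gene at 0, are sparse on the left and frequent on the right, the 6 tissue isoforms of complex IV are dark throughout, and the dark column in the middle band is cell 94.

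Complex I, the NADH dehydrogenase, had 35 of 36 members lower in the high band, with a median of -4.79, where 74.0% of all tested symbols were lower. The same share applies to the counts of the other classes below. Ndufb9, an accessory subunit, had the smallest difference of the complex, -0.73 (-0.91 without cell 11). Its globin-free values in the low cells, in order of Hba-a1, were 708.9, 1582, 1582, 1860.2, 1055, 1843 and 2156. High cells ran from 0 through a median of 1059 to 3500, with 27 of 28 listing it. The ranges overlapped fully, and several high cells exceeded every low cell. Ndufa2 differed by -1.22, with a low median of 821.9 and a high median of 591.9, and Ndufa3 by -2.08, with 977.1 and 541.4. Both are accessory subunits listed in 26 and 24 of 28 high cells, and the span of Ndufa2 overlaps another gene, Tmco6.

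At the other end stood Ndufa10, also an accessory subunit, at -7.99. Its low cells held 244.9, 466.7, 787.9, 694.1, 543.9, 139.9 and 214.3. Only 2 of 28 high cells listed it, against 14 of 20 middle cells, and its mean high level was 4.80% of its low level.

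Complex II, succinate dehydrogenase, is the only complex coded wholly in the nucleus and is shared with the TCA cycle. All 4 genes were lower in the high band, with a median of -7.02. Sdhd, a membrane anchor whose promoter is printed above, had 793.5, 810.8, 787.1, 1004, 547.5, 553.2 and 807.6 in the low cells in order of Hba-a1. It was listed in 17 of 20 middle cells with a median of 280.5, and in 2 of 28 high cells, which gave -8.93. No low cell was below 547.5, and 26 high cells were at 0. Sdhc, the other anchor, went from a low median of 456.4 to 0, with 5 of 28 high cells (-7.08). Sdha, the flavoprotein that oxidises succinate, went from 115.1, 28.4, 245.5, 378.5, 218.2, 259.4 and 235.6 in the low cells to a high median of 0 and differed by -6.97. Sdhb, the iron-sulfur subunit, kept most: its low median was 469.4, 11 of 28 high cells listed it and it differed by -5.65.

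Complex III passes electrons from ubiquinol to cytochrome c, and all 8 members were lower, with a median of -3.58. Uqcr10, a small subunit, had the smallest difference, -1.54. Its low cells held 2197, 1585, 1215, 1205, 1288, 723.9 and 1074, and its high cells ran from 0 through 521.1 to 1963 with 27 of 28 listing it. Uqcrb and Uqcr11, 2 further small subunits, differed by -1.92 and -3.58. Uqcrc2, a large core subunit, differed by -6.69. Its low cells ran from 37.6 through 247.4 to 563.4, and 5 of 28 high cells listed it. The 3 larger subunits Uqcrc1, Uqcrc2 and Uqcrfs1 lay between -6.69 and -4.99 and the 5 small ones between -3.58 and -1.54, without overlap. That split was made after values were seen and goes with median lengths of 1653 and 535 bases for the longest matched transcript of each gene.

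Complex IV, cytochrome c oxidase, had 11 of 18 members lower. All 11 were among the 12 that passed the filter, the footing on which the 74.0% of all symbols was taken. Of the other 7, 6 were at 0 in every compared cell and so did not pass the filter. Those 6 are isoforms known from other tissues or states: Cox4i2 (lung, low oxygen), Cox6a2, Cox7a1 and Cox8b (heart and muscle), and Cox7b2 and Cox8c (testis). Their widely expressed partners carried the signal. Cox6a1 had 1537, 2119, 1792, 2399.8, 1952, 2683 and 2853 in the low cells, and the high cells ran from 0 through 1629 to 5387, with 27 of 28 listing it and a difference of -1.07. Cox7a2 had the smallest difference of the complex, -0.94, and passed 1 without cell 11 (-1.04). Its span overlaps Tmem30a. Cox4i1 went from a low median of 2220 to 893.4 (-1.92), Cox8a from 1556 to 534.5 (-2.21), Cox6b1 from 1500 to 440.5 (-2.76) and Cox7b from 535.3 to 157.2 (-3.80).

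Cox6b2, the isoform best known from testis, was listed beside Cox6b1. Its low cells held 0, 895.2, 1554, 354.1, 436.8, 316.9 and 443.0. It was thus at 0 in cell 11 and present in the other 6, and in 18 of 20 middle and 15 of 28 high cells. The difference was -3.39 with cell 11 and -4.70 without it. Cox5a, which is needed to assemble the enzyme, had the largest difference, -5.00, from a low median of 893.8 to 83.7, with 16 of 28 high cells. Ndufa4, named for complex I but now placed with complex IV, went from 1714 to 664.5 (-3.43).

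Complex V, ATP synthase, had all 15 members lower, with a median of -2.67. Atp5b had 1218, 2116, 4004, 2101, 2017, 2089 and 2265 in the low cells and ran from 48.1 through 497.3 to 1790 in the high cells, a difference of -2.22. The high median lay below every low cell. The ranges overlapped only through cell 11, since the other 6 low cells held at least 2017. Atp5j2, the f subunit of the membrane part, differed by -1.04, with low cells between 937.7 and 2181 and a high median of 771.7. Atp5h, part of the peripheral stalk, differed by -2.22, from a low median of 1409 to 631.0.

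The 3 genes that code the same mature c subunit, which forms the rotor ring, differed from each other. Atp5g1 had 2115, 2273, 2703, 1034, 1652, 1702 and 1534 in the low cells, the highest low median of the 3 (1702). It was listed in 10 of 28 high cells, none above 533.0, which gave -7.87 and a mean high level of 5.75% of the low one. Atp5g3 had a low median of 1400 and a high median of 427.3, was listed in 21 of 28 high cells and differed by -3.49. Atp5g2 had a low median of 433.4 and was listed in 6 of 28 (-6.39). The order of Atp5g1 and Atp5g3 by median was thus turned round between the low and high bands. Atp5g2 and Atp5g3 were picked out after their values were seen, and how reads shared by such related genes were assigned is not given in the sources used here.

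**Figure D4:**
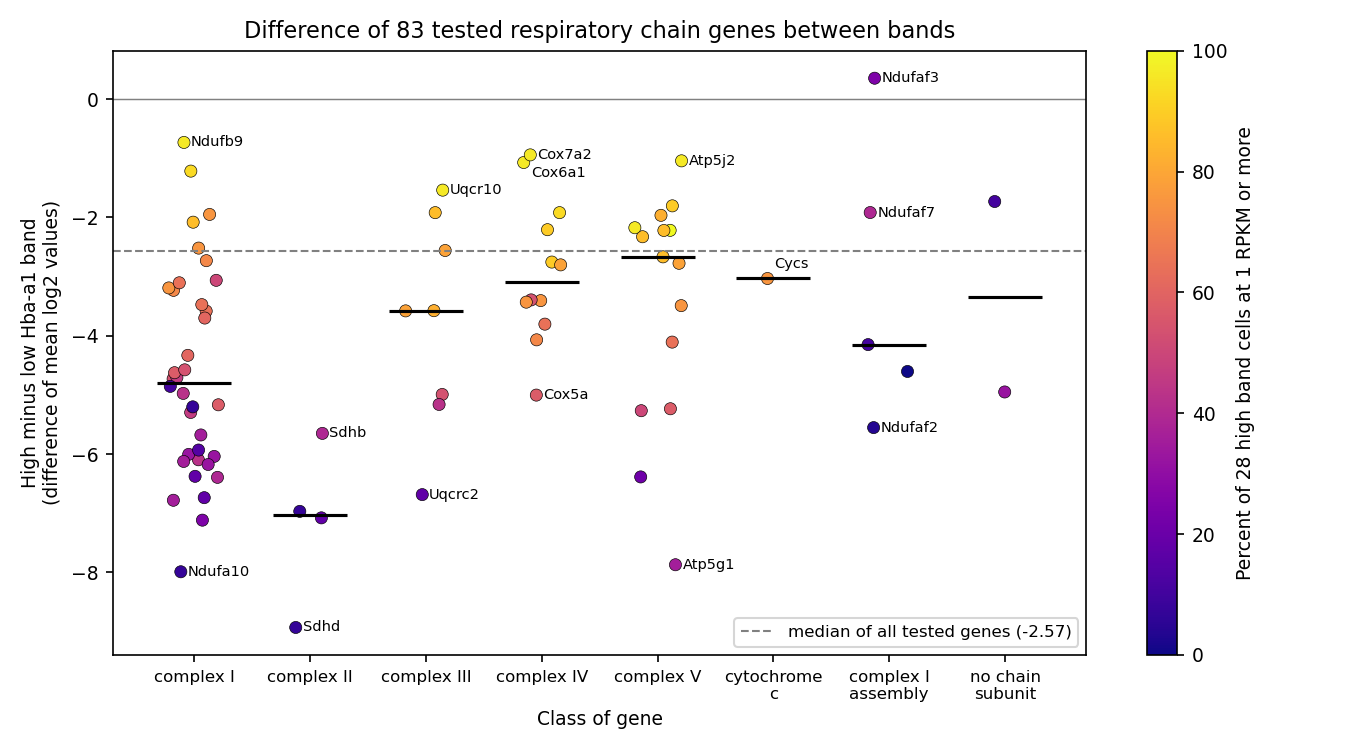
Each point is 1 of the 83 tested genes, placed by class and by its high minus low difference of mean log2 values and coloured by the percent of high cells that list it; solid lines are class medians and the dashed line is the median of all tested genes. Points range from 0.35 (Ndufaf3) to -8.93 (Sdhd), the complex II line lies lowest at -7.02, and subunit genes with small differences are those listed in most high cells.

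Cycs had 168.3, 369.2, 489.7, 358.1, 646.2, 358.4 and 246.2 in the low cells, a high median of 117.0 with 21 of 28 cells listing it, and a difference of -3.03. Of the 7 complex I assembly factors 5 were lower, near the 74.0% of all tested symbols. Their levels were much below those of the subunits: Ndufaf7 had a low median of 40.4 and a high median of 3.25 (-1.92), Ndufaf1 went from 119.5 to 0 (-4.15) and Ndufaf2 from 101.4 to 0 (-5.55). Ndufaf3 was listed in 2 of 7 low and 7 of 28 high cells and differed by 0.35. Of the 4 symbols that code no subunit, Cox7a2l, known for joining complexes into supercomplexes, went from a low median of 131.5 to 0, with 9 of 28 high cells (-4.95), and Atp5s had -1.73. Atp5sl and Ndufa4l2 were listed in at most 1 cell of any band.

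Across the 83 tested members, those with higher low band levels differed less (Spearman's rho 0.31, over genes that share the same cells), while over all 4223 tested symbols the sign was the opposite (-0.65). The low level enters both terms of each rho, which by itself pushes it down. The filter also admits symbols at or near 0 in the low band, which cannot be lower. The contrast of signs therefore says little about the members. Members with longer transcripts differed more (rho -0.32). The length was that of the longest matched transcript of a symbol, which need not be the row whose value was used. These are descriptions over genes, which are not independent.

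Lists of genes that act with the chain were read the same way from the low to the high band, where 74.0% of all tested symbols were lower. Counts and medians are over all genes of a list, tested or not. The 74.0% covers only symbols that passed the filter, which leaves out any symbol listed in low cells alone. Of 14 TCA cycle genes 14 were lower (median -4.99), among them Idh3a, a subunit of isocitrate dehydrogenase (-7.32), and Fh1, fumarase (-7.19). Of 6 carriers and channels 6 were lower (median -5.87), with Slc25a3, which brings in phosphate, at -7.01 and Slc25a5, which exchanges ADP and ATP, at -6.79. Of 20 import and prohibitin genes 20 were lower (median -5.70), and Hspe1, the mitochondrial co-chaperonin, had -8.62. The 3 complex II assembly factors were lower too (median -2.13). For 2 lists the count was near that 74.0%, though only 7 of 16 and 8 of 15 of their genes passed the filter. Of 16 assembly factors of complexes III and IV 12 were lower (median -2.38), with Coa3 at -7.43 and Cox14 at -5.55. Of 15 glycolysis genes 12 were lower (10 without cell 11), with Tpi1 at -8.66 and Ldha at -7.93. The glycolysis median was -3.74 over all 15 and -6.33 over the 8 that passed the filter. Of 12 regulators of mitochondrial biogenesis 6 were lower, with Tfb1m at -3.75 and Tfam at -3.28. Their median was -0.83 over all 12 and -2.14 over the 5 that passed. No gene of these lists was higher by 1 or more.

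The mean share of non-globin signal that a list kept in the high band, of its low band share, differed between lists. It was 42.6% for the chain, 35.6% for 40 proteasome genes, 27.6% for the TCA cycle, 25.9% for 77 mitochondrial ribosomal protein genes, 19.9% for cytoplasmic ribosomal protein genes, 18.2% for carriers, 16.2% for import and 3.02% for glycolysis. Without cell 11 these were 43.1%, 34.9%, 26.8%, 25.5%, 20.4%, 18.0%, 16.0% and 3.96%. Higher values than that of the chain were seen for 4 lists: 48.5% for assembly factors of complexes III and IV (44.1% without cell 11), 53.9% for those of complex II, 82.2% for the biogenesis regulators and 181% for the assembly factors and inhibitor of ATP synthase. Complex II itself, with 12.1%, lay below the TCA cycle list. Medians of the share over low and high cells were 0.0128% and 0 for complex II assembly, and 0.0159% and 0.00452% for the regulators. For assembly of complexes III and IV they were 0.211% and 0.0928%, and for the chain 6.82% and 2.75%. By medians complex II assembly and the regulators thus kept less than the chain. The ATP synthase list, at 0.168% and 0.294%, was carried by Atpif1, with low and high median levels of 1508 and 2941. Tmem70, Atpaf2 and Atpaf1 had high medians of 0.

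Among the 4 assembly factors and inhibitors of ATP synthase 2 were lower, Tmem70 (-3.98) and Atpaf2 (-3.21). Atpif1, the inhibitor that binds ATP synthase and is known to be needed for heme synthesis, differed in the other direction by 0.91 (0.74 without cell 11), which is under 1. Its low cells ran from 726.2 through 1508 to 2058 and its high cells from 854.8 through 2941 to 6043, and all 7 low and 28 high cells listed it. It was named after its values were seen. The ranges overlapped, but no high cell lacked it, whereas each chain subunit other than Atp5b was at under 1 RPKM in at least 1 high cell.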

How the data were processed

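Values are RPKM per RefSeq transcript made by the authors and deposited as a table. Per the submitters' processing notes TopHat2 2.0.9 and build mm9 were used, and per the labels' protocols cells were taken on a Fluidigm C1 chip and libraries made with SMART-Seq and Nextera XT. How reads were counted is not given in the sources used here. Each symbol took its highest of 34899 transcript rows, was divided by the summed RPKM of non-globin symbols (12 globin symbols left out) and given per 1000000, and band means of log2(value + 1) were compared with Python 3.11.15, pandas 2.3.3 and numpy 2.4.6. Calls need a difference of 1. Cells with at least 3 markers, and 50% of the measured ones, of another lineage at 10 RPKM were set aside, and at least 3 erythroid markers were required. No doublet caller was run. Depth was estimated from steps between low RPKM values with GENCODE M21 lengths (97.6% of rows matched). Whether 1 step is a read or a pair is not settled, so depth may be off by a factor of 2. The steps were checked on simulated data. The RefSeq annotation is of another build than mm9 and served for names, overlaps and promoter windows only. Of the members, 15 span another coding gene, and no source used here says whether counting used strand.

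The members, lists and band limits were chosen with earlier results of these data known. Most genes of the chain and the lists were named by rule: per class the 3 with the highest mean level and those with the largest and smallest difference among members listed in at least 50% of low or high cells, all complex IV isoforms, all symbols coding no subunit, and 2 per further list. Sdha, Ndufa4, Uqcrc1, Uqcrfs1, Atp5g2, Atp5g3, Atpif1 and Atpaf1 were named outside that rule. Alternatives were other cell and gene filters, pseudocounts, scalings, summaries, band limits, run codes and left-out cells. 1 member is counted in the totals but not reported by itself here.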

Additional observations from a re-analysis of the deposited data

Results flagged for a closer look

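The 13 cells set aside for markers of another lineage were outside every comparison, and their chain genes were well listed: their median chain share was 4.54% of non-globin signal, from 2.56% to 6.95%, with a median of 77 of the 93 genes at 1 RPKM or more and of 4275 symbols. There are no control cells to set them against, and they were singled out only because no comparison used them. Without cell 94 the lowest middle band cell had 2.86%, above the lowest of these 13.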

How the results depend on the processing

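No paired analysis was possible because all cells carry 1 group label. The lower chain share and the lower complex II in the high band kept their direction under each alternative run. The high minus low median of tested members (-3.80, 80 lower) moved to -1.40 on linear means over cells, -2.01 on medians over cells and -5.62 with globin kept in the scaling. Within run code SCP-1706013 only 41 members passed the filter of 10 among 14 cells, and 40 of these were lower (83 of all 93). 1 member was higher on linear means, with no cell set aside and, of the cells left out in turn, without cell 66. High minus middle became -0.93 (35 lower) on linear means and -0.80 (20 lower and 3 higher of 41 tested, 49 and 6 of all 93) within SCP-1706013, and 2 were higher under limits of 200000 and 500000 RPKM or tertiles. Middle minus low had 16 lower with limits of 50000 and 300000 RPKM, 17 lower and 2 higher on linear means, 20 lower on medians, 26 lower and 6 higher with no cell set aside, 81 lower with globin kept and 32 lower of 41 tested (73 of all 93) within SCP-1706013. With a minimum of 500 symbols 4 were higher, and the 1 higher member became 0 under the deposited scale, a pseudocount of 10, a filter of 20 cells, kept few-marker cells, other limits, and leaving out cells (0 to 1). Chain shares with globin kept were 5.37%, 1.45% and 0.294%, the low share was 6.14% in tertiles and 7.69% without ribosomal protein genes. Leaving out each low cell in turn gave low shares of 6.59% to 7.06%, medians of -4.01 to -3.75 and 79 to 81 members lower. The further lists (-5.14) moved to -3.96 in tertiles, -3.21 with 500 symbols, -2.56 on linear means, -6.87 on medians, -3.92 with no cell set aside, -3.64 with no gene filter, -7.39 and -2.80 with pseudocounts of 0.1 and 10, and -3.65 within SCP-1706013. Reversed values were Cox6a1 0.21 and Ndufa2 0.82 (500 symbols), Ndufa2 0.31 and the parts of complex I (0.68 points) and III (0.60 points) with limits of 200000 and 500000 RPKM, Atp5j2 0.033 with no cell set aside, and the ATP synthase assembly list 0.91 (filter of 20 cells) and 0.59 (SCP-1706013). The cause was not tested. A minimum of 2000 symbols and the other run codes alone left too few cells and were not run. A listing at 0 in a high cell does not show absence, since how much RNA was captured was not measured.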

Other observations

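The cell left out for few erythroid markers had a chain share of 6.41% and listed 77 of the 93 genes. The 27 cells under the minimum of 1000 symbols had shares from 0 through a median of 2.31% to 12.4%, on a median of 7 members and 485 symbols listed. They carry too few genes to place by lineage.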
